A study of Mus musculus with 6 samples.

Results

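Microglia, the resident macrophages of the brain parenchyma, were the cells that the authors' deposited annotation named microglia. They made up 9403 of the 13052 immune cells in the data set (72.0%). The cells came from whole brains of female C57BL/6 mice and were read by CITE-seq, which counts RNA and DNA-tagged antibodies on the same single cells. The 4 groups compared, all of naive brains, were young control mice (12 weeks, vehicle), young antibiotic mice (12 weeks, gut microbiota depleted with antibiotics), aged control mice (72 weeks, vehicle) and aged antibiotic mice (72 weeks, depleted microbiota). The 24 mice, 6 in each group, were processed singly and then combined into 12 pools, 3 per group, and each pool carried 1 hashtag antibody. The antibiotics are not named in the sources used here. The pool was the replicate throughout, so p-values measure the spread between pools of combined mice.

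Microglia arise from yolk sac progenitors and maintain themselves in the brain under signalling through the receptor CSF1R. They survey the tissue through purine receptors such as P2RY12, clear debris and synapses, and hold an identity that the transcription factor SALL1 helps to maintain. With age and near damage they are known to take on lipid-handling and phagocytic genes such as Apoe, Axl and Cst7, and signals from the gut microbiota are known to influence their maturation. BAM, the border-associated macrophages of the meninges, perivascular spaces and choroid plexus, are their closest relatives among the annotated types.

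Each pool held 475 to 1186 microglia, with 2513 from young controls, 2531 from young antibiotic mice, 2226 from aged controls and 2133 from aged antibiotic mice. The median raw RNA total per microglial cell was 6927, 6669, 7154.5 and 7084 UMIs in the same order. Antibody depth was far less even, with a median of 1257 and 1191 tags per microglial cell in the 2 young groups and 174 and 164 in the 2 aged groups. Young and aged pools were loaded in separate wells, so age and well cannot be told apart, and hashtags 1 to 3 marked control and 4 to 6 antibiotic pools, so hashtag and arm cannot be told apart either. Each group held exactly 3263 cells, which makes every share below a share of a chosen set. A total of 59 cell barcodes occurred in both wells, and for 2 of them both cells were microglia.

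Microglial marker genes were high in the cells that carried the label. The 9 microglial marker genes described here were all highest in microglia among the 9 annotated types of at least 100 cells, and BAM came second for 9 of 9. P2ry12, the purine receptor that steers microglial processes, averaged 10.5 corrected UMI values per microglial cell (8.26 to 12.3 over the 12 pools) against 2.49 per BAM. Tmem119, a membrane protein of parenchymal microglia, averaged 8.12 (7.66 to 8.69) against 1.88 in BAM. Sall1 averaged 1.44 (1.35 to 1.65) against 0.274. It was above 0 in 67.6% of microglia and 16.2% of BAM, and in 2.59% of CD8+ cells, which should lack it, at median depths of 6934, 7610.5 and 7096.5 raw UMIs.

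The 5 lead markers separated microglia from BAM to different degrees. Siglech averaged 6.23 in microglia (5.25 to 6.83) and 1.99 in BAM. Fcrls, a scavenger-receptor-like protein of the Fc receptor family, came closest, with 8.09 in microglia (6.37 to 9.10) and 4.97 in BAM, 80.9% of which had a value above 0. The further markers were the fractalkine receptor gene Cx3cr1 (18.6 against 7.89), the lysophospholipid receptor gene Gpr34 (8.70 against 2.61), P2ry13 (2.35 against 0.816) and Olfml3 (6.06 against 1.75). As the types were defined on these same cells, differences of level between types are a description and were not tested.

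**Figure D1:**
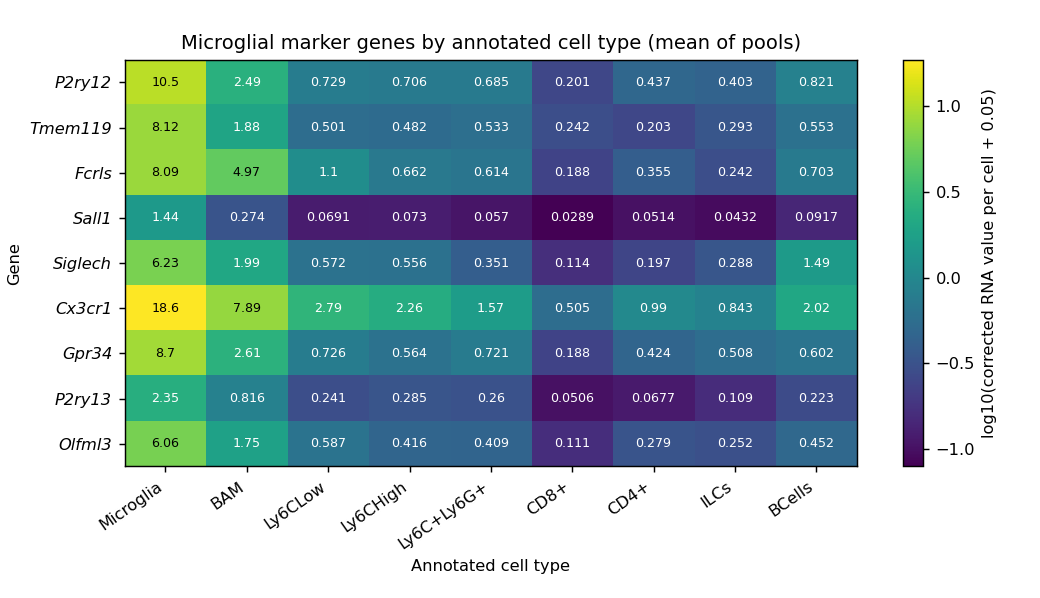
Mean corrected RNA value per cell of 9 microglial markers (rows) in 9 annotated cell types (columns), each the mean of the pools that hold the type, printed in each cell and coloured by log10(value + 0.05). Every marker is highest in microglia, for example P2ry12 at 10.5, and second in BAM, for example Fcrls at 4.97.

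Ranked by the ratio of their microglial mean to the highest mean of any other type of at least 100 cells, the microglia-expressed genes were led by genes outside the marker list. Ecscr, an endothelial chemotaxis regulator, had the highest ratio (5.73, at a mean of 1.78). It was followed by Gpr84, a receptor for medium-chain fatty acids (5.22, mean 1.72), and Sparc, a secreted matrix protein (5.06, mean 14.6). Upk1b, a uroplakin, had a ratio of 4.97 at a mean of only 0.519. The zinc finger genes Sall1 and Sall3, the inhibitory receptor gene Lag3, the fructose transporter gene Slc2a5, the adhesion receptor gene Adgrg1, the glutamate transporter gene Slc1a3, Cd34, Crybb1, Tmem119 and Fscn1 were also among the first 20.

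The microglia themselves were not of one kind in the authors' clustering. Cluster 0 held 8041 of them (85.5%, median 7220 raw UMIs) and cluster 1 held 1204 (12.8%, median 1452 raw UMIs). The cluster 1 cells had lower values of microglial genes, at 3.53 against 11.8 for P2ry12, 3.82 against 8.81 for Tmem119, 2.77 against 9.02 for Fcrls and 37.0 against 299 for Cst3, which encodes the protease inhibitor cystatin C. Their mean was higher for Vim, the gene of the filament protein vimentin (1.72 against 0.173), which was above 0 in 88.5% of cluster 1 and 12.2% of cluster 0 microglia. Means were also higher for Tagln, Mgp (3.00 against 0.164) and Acta2, genes of contractile and matrix-forming cells, but about the same share of cells had them. Tagln was above 0 in 8.64% of cluster 1 and 7.16% of cluster 0 cells, Mgp in 14.8% and 12.9%, and Acta2 in 13.2% and 13.9%, so a minority of cells carried these means. These are corrected values of cells with medians of 1452 and 7220 raw UMIs, and the part of depth in them was not tested.

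Cluster 1 made up 7.59% to 19.7% of the microglia of a pool. The group means were 10.8% ± 2.12 in young controls, 10.3% ± 2.40 in young antibiotic pools, 14.5% ± 0.755 in aged controls and 16.4% ± 4.28 in aged antibiotic pools (SD, n = 3). The age difference had an exact two-sided permutation p of 0.1 in control pools, the smallest that 3 pools against 3 allow, and 0.2 in antibiotic pools. A further 52 microglia sat in cluster 10, at a median of 17172.5 raw UMIs, with red cell RNA in every one of them. They averaged 2148 for Hbb-bs and 640 for Hba-a1, and also carried the erythroid gene Alas2. The remaining 106 were spread over clusters led by other types. Every comparison of genes between groups was therefore run a second time on cluster 0 alone, an alternative chosen after these values were seen.

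Within cluster 0 the genes were ranked by how much they varied from cell to cell, as variance over mean. Ccl4, an inflammatory chemokine, had the highest ratio, at 63.9. The median over microglia-expressed genes was 1.18, taken in all microglia and not in cluster 0 alone. Its mean was 26.1 per cell, its median 5 and its 99th percentile 184.6. Ccl3, the neighbouring chemokine gene, had a ratio of 45.7, a mean of 18.9, a median of 4 and a 99th percentile of 129. Cxcl10, an interferon-induced chemokine, was above 0 in 16.7% of cluster 0 microglia, and its ratio ran from 8.26 to 156 between pools. The rest of the first 15 were Cst3 (45.8), Klf2 (29.8), H3f3b (28.7), Malat1 (27.1), Fos (19.7), Atf3 (19.7), Jun (17.3), Adamts1 (16.6), Hspb1 (13.7), Ftl1 (13.4), Nfkbia (12.6) and Ier2 (12.5). Fos, Atf3, Jun and Ier2 among them are immediate early genes.

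Some of these genes varied together. Ccl3 and Ccl4 correlated across the cluster 0 cells of a pool with a median Pearson r of 0.63 over the 12 pools (0.55 to 0.69). Fos correlated with Jun at 0.60 (0.45 to 0.64) and with Ier2 at 0.51 (0.42 to 0.59). Ccl4 gave 0.14 with Fos (0.06 to 0.19) and 0.22 with Atf3 (0.19 to 0.31). The chemokine Cxcl10 gave only 0.12 with Ccl4 and 0.11 with Ccl3. Cells of a pool share a library, so these are descriptions across cells.

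RNA of marker genes of other cell types was present in the microglia, for some lists at sums that were not low, and some of it followed the groups. Summed over 8 neutrophil markers, the value per microglial cell ran from 2.41 to 6.74 in young controls, 2.48 to 21.5 in young antibiotic pools, 0.669 to 0.785 in aged controls and 1.14 to 3.10 in aged antibiotic pools. For 3 choroid plexus markers it was 2.58 to 3.85, 4.98 to 9.79, 6.52 to 8.93 and 3.53 to 13.7. For 6 B cell markers it was 1.85 to 2.08 and 1.73 to 1.98 in the young groups and 2.75 to 3.95 and 2.59 to 2.79 in the aged. For 8 BAM markers, 7 of them under 0.05 on average, it was 1.13 to 1.22, 1.15 to 1.27, 1.28 to 1.38 and 1.25 to 1.62. The BAM sum therefore rests mostly on the remaining marker, and whether its RNA came from BAM or from microglia was not tested. All 8 T cell markers averaged under 0.05, and no list had a marker at exactly 0. The part of such RNA in the group differences below was not tested.

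The share of microglia among all cells did not differ between arms beyond the spread of pools. It was 71.5%, 80.3% and 80.9% in the young control pools and 75.1%, 85.0% and 74.6% in the young antibiotic pools. The aged control pools held 75.5%, 62.3% and 68.0% microglia, and the aged antibiotic pools 68.2%, 74.2% and 49.8%. Aged antibiotic 3 was the lowest of all, and the arms overlapped at both ages. The antibiotic differences were 0.689 percentage points for young pools, -4.55 for aged pools and -1.93 for both ages (exact two-sided permutation p of 1.0, 0.7 and 0.72). Without aged antibiotic 3 the last 2 became 2.56 and 1.63, and the young difference became -2.33 without young control 1 and -2.71 without young antibiotic 2. Aged minus young was -8.92 points in control pools (p = 0.2) and -14.2 in antibiotic pools (p = 0.1, the smallest these exact tests allow).

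The first question for RNA was what antibiotics did to microglia. limma was run on log2(mean value per cell in a pool + 0.05) over the 8759 genes with a mean of at least 0.05, with a Benjamini-Hochberg adjusted p under 0.05 as threshold. In aged mice it called 139 genes higher (1.59% of those tested) and 144 lower (1.64%), in young mice 12 in all (0.137%), and over both ages 189 higher (2.16%) and 284 lower (3.24%). Of the genes that microglia express well, 110 of 1938 were called in aged mice and 6 in young mice. Calls in the 2 ages compare separate pools, but the spread of each gene was estimated over all 12 pools, so they are not fully independent. The calls shared 6 genes, all in the same direction, 50.0% of the young calls and 2.12% of the aged.

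A called difference between the ages was not found. For the antibiotic effect in aged minus that in young, limma called 0 of 8759 genes (0%), while 579 had a p below 0.05 before adjustment and the smallest adjusted p was 0.141. The young count fell to 0 without young control 2, young control 3 or young antibiotic 1 and to 2 without young control 1 or young antibiotic 2. It was 7 without aged control 3, 21 without aged antibiotic 1 and 26 without aged control 2. The aged count fell to 109 without aged antibiotic 2, 117 without aged control 2, 146 without aged control 1 and 181 without aged control 3. The count over both ages was 262 without aged control 2, 272 without young control 3, 291 without young antibiotic 1 and 293 without aged antibiotic 2. On cluster 0 alone the counts were 73 for young mice, 571 for aged mice, 802 for both ages and 2 for the difference.

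Of the gene lists examined, that of endoplasmic reticulum (ER) chaperones and the unfolded protein response had the most members called in aged antibiotic microglia. All lists were chosen with earlier results of these data known. Counts of list members beside the share of all genes, here and below, are therefore a description and not a test of the lists. The chaperones fold and quality-check secreted and membrane proteins. Their genes are classic targets of the unfolded protein response, which acts through transcription factors such as XBP1 and ATF6. The list also holds regulators that are not chaperones, such as Xbp1, Ddit3 and Nupr1. Of 23 tested genes of this list (24 members), 10 were lower in aged antibiotic microglia and 0 higher, beside 1.64% of all genes lower, and all 23 had a negative log2 change, with a median of -0.20 against -0.01 over all genes tested. In young microglia 0 of the 23 passed, 23 of 23 were again negative and the median was -0.14. Over both ages 11 were lower and 0 higher, beside 3.24% of all genes lower, with a median of -0.19. The aged count of 10 fell to 5 without aged control 1, and leaving out other single pools gave at most 11.

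Several members of the list carry, in the DNA just before their start site, the paired box known as the ER stress response element, to which NF-Y and ATF6 are known to bind. It is shown for 4 of the members that were called lower over both ages. The sequences are the 200 bases before the start from RefSeq (GRCm38.p6), 5′ to 3′ on the strand of the gene. Capitals mark both conserved ends of the motif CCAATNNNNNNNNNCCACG, which was searched on both strands and appears as CGTGG and ATTGG where it lies on the other strand.
Hspa5, chr2:34771890-34772089, plus strand: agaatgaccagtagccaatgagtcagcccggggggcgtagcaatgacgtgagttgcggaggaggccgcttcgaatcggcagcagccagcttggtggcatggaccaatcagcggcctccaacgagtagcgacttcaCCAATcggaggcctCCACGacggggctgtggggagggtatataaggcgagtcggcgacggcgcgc
Calr, chr8:84846932-84847131, minus strand: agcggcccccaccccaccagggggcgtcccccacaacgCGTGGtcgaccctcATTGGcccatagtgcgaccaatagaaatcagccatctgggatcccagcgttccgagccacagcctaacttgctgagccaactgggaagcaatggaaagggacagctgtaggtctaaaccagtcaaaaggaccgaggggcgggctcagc
Pdia6, chr12:17266389-17266588, plus strand: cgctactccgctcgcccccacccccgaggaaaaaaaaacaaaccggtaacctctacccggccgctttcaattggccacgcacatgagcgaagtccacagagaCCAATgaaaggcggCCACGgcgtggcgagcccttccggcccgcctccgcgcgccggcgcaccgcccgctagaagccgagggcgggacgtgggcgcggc
Creld2, chr15:88819446-88819645, plus strand: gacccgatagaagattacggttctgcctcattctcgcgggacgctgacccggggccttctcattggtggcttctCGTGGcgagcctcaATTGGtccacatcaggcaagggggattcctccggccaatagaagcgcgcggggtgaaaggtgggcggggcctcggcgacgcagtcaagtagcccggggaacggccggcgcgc
The motif ended 47 bases before the start in Hspa5, 80 in Pdia6, 108 in Creld2 and 144 in Calr. In windows of 300 bases (250 before and 50 after the start) it was found in 7 of the 22 list members with a window and in 5 of the 8 called lower in aged mice that had one. It was found in 37 of 27025 genes (0.137%) and in 39 of 32851 windows (0.119%). A match of letters is a description and not evidence of binding.

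Hspa5, which encodes BiP, the main chaperone of the endoplasmic reticulum, had values of 9.31, 10.9 and 9.05 per cell in young control pools and 7.40, 8.66 and 8.44 in young antibiotic pools. In aged pools it was 8.95, 10.5 and 7.81 in control and 4.94, 5.05 and 6.12 in antibiotic mice. All antibiotic pools lay below all control pools of their age, and the aged antibiotic pools lay below every other pool. The log2 change was -0.75 ± 0.10 (SE) in aged mice (limma adjusted p = 0.000731), -0.25 in young mice (0.384, not passing) and -0.50 ± 0.07 over both ages (0.00069).

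Calr, which encodes the calcium-binding lectin chaperone calreticulin, was 4.50, 4.53 and 4.28 in young control pools and 3.16, 3.83 and 3.88 in young antibiotic pools. In aged mice it was 4.37, 4.40 and 3.92 in control and 3.10, 3.14 and 3.07 in antibiotic pools. The arms were again apart at both ages, with a log2 change of -0.44 ± 0.07 in aged mice (limma adjusted p = 0.00242) and -0.30 in young mice (0.103). Manf, a secreted protein of the ER stress response, went from 1.59, 1.66 and 1.46 in aged control to 1.12, 1.17 and 1.15 in aged antibiotic pools, a change of -0.44 ± 0.07 (adjusted p = 0.00175). In young pools Manf was 1.72, 1.78 and 1.68 against 1.25, 1.40 and 1.50 (-0.31, adjusted p = 0.068). These 3 genes held their calls in aged mice and over both ages whichever of the 12 pools was left out.

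Other members followed in aged mice. Xbp1, the transcription factor named above, was 1.43, 1.48 and 1.30 in control and 1.03, 1.09 and 1.08 in antibiotic pools (log2 -0.38 ± 0.06, limma adjusted p = 0.00242). The disulfide isomerase gene Pdia6 fell by 0.35 on the log2 scale, Creld2 by 0.44, the chaperone genes Hsp90b1 and Hyou1 by 0.29 and 0.39, the stress transcription factor gene Ddit3 (CHOP) by 0.44 and the stress-induced regulator Nupr1 by 0.61. Each of these 6 lost its aged call without at least 1 pool, with a largest adjusted p between 0.053 (Ddit3 without aged control 1) and 0.13 (Creld2 and Hyou1). For 5 of them the pools include aged control 2, and for Ddit3 aged control 1 alone. Over both ages Pdia6, Creld2, Xbp1, Ddit3, Nupr1 and Sdf2l1 (-0.31, adjusted p = 0.00247) were lower under every single pool left out. Of 11 tested chaperones of the cytosol and mitochondria, 3 were lower in aged mice, beside 1.64% of all genes, Dnaja1 (-0.40), Hspa8 (-0.36) and Hsph1 (-0.67), and 1 to 3 when single pools were left out. Hspa8 and Hsph1 were not called without aged control 2 or aged antibiotic 2, among others (adjusted p up to 0.13).

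Genes known to be induced by glucocorticoids went the other way. Of 15 tested (17 members), 8 were higher in aged antibiotic microglia and 0 lower, beside 1.59% of all genes higher, with a median log2 change of 0.38. In young mice 0 passed and the median was 0.03. Over both ages 6 were higher, beside 2.16% of all genes, and 1, Cdkn1a, was lower, beside 3.24%. The aged count of 8 fell to 4 without aged control 2.

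Fkbp5, a co-chaperone that dampens the glucocorticoid receptor, was 0.992, 0.436 and 0.738 in young control and 1.40, 1.43 and 1.46 in young antibiotic pools. It was 0.806, 0.391 and 0.729 in aged control and 1.33, 1.35 and 0.949 in aged antibiotic pools, so the arms did not overlap at either age. Its log2 change over both ages was 0.96 ± 0.16 (limma adjusted p = 0.00162), under every pool left out. In aged mice it was 0.91 ± 0.22 (0.0328), which was lost without aged control 2, aged antibiotic 1 or aged antibiotic 2 (up to 0.16), and in young mice 1.01 did not pass (0.0787).

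Other genes of this list passed in aged and not in young mice, though the difference between the ages was not called for any gene. Mt1, a metal-binding metallothionein, was 3.39, 2.96 and 2.99 in aged control and 4.11, 5.43 and 4.77 in aged antibiotic pools (log2 0.60 ± 0.09, limma adjusted p = 0.00189). Dusp1, a phosphatase that shuts off MAP kinases, was 17.0, 17.8 and 19.8 in aged control and 24.1, 24.9 and 24.0 in aged antibiotic pools (0.42, adjusted p = 0.00413). Its young pools, at 21.4 to 23.4 in control and 22.0 to 23.4 in antibiotic mice, lay between them. Klf9, a Krüppel-like transcription factor, rose from 0.0716, 0.0658 and 0.0842 to 0.213, 0.229 and 0.126 (0.92, adjusted p = 0.00175). Mt2 (0.69), Tsc22d3, which encodes GILZ (0.55), the mTORC1 inhibitor gene Ddit4 (1.46) and the clock gene Per1 (0.38) completed the 8. Tsc22d3 lost its call without any one of the 6 aged pools (adjusted p up to 0.17), Ddit4 without aged control 2, aged control 3 or aged antibiotic 2 (up to 0.099), and Per1 without those or aged antibiotic 1 (up to 0.18).

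**Figure D2:**
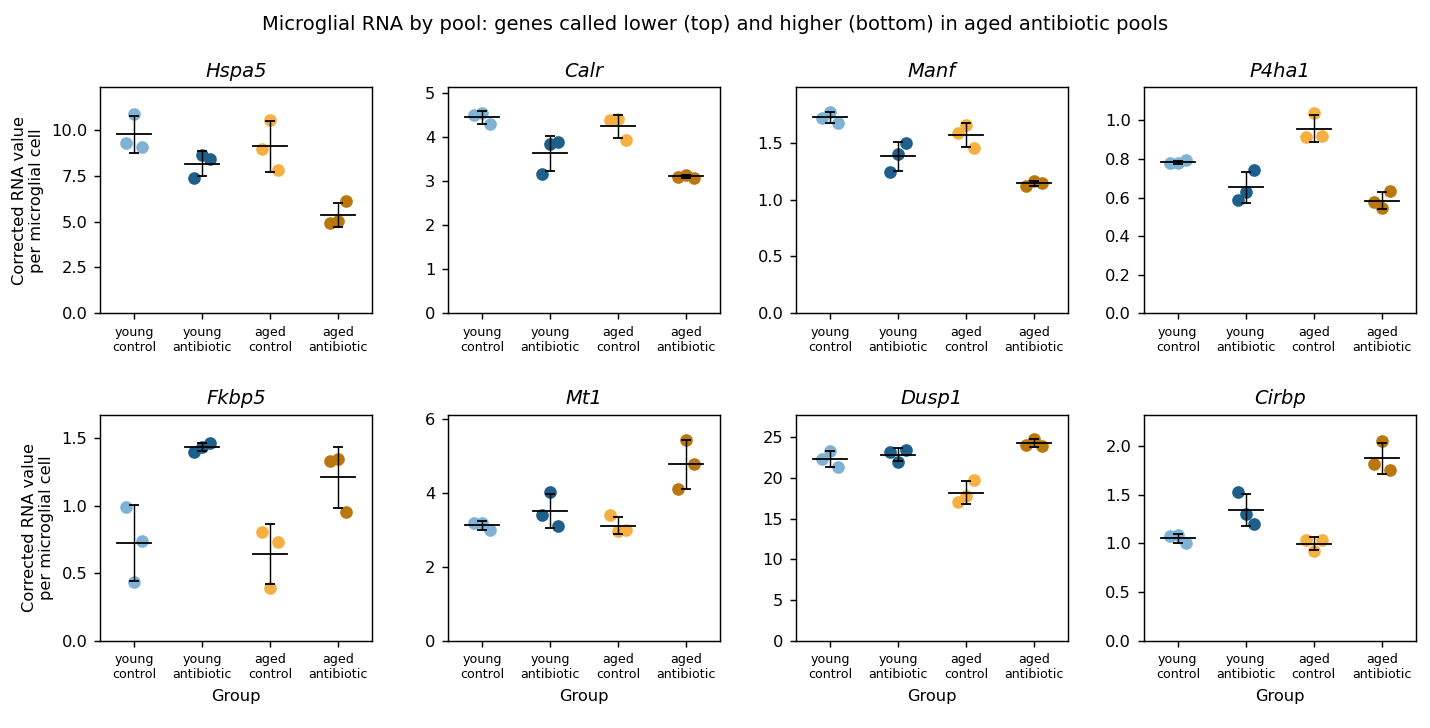
Corrected RNA value per microglial cell (y axes, from 0) in each of the 12 pools for 8 genes, by group (x axes); points are pools, bars the mean of 3 pools and whiskers the SD. Hspa5, Calr and Manf are lowest in the 3 aged antibiotic pools, where Hspa5 is 4.94 to 6.12, and Cirbp is highest there, at 1.76 to 2.05.

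After Fkbp5, the well-expressed gene with the largest rise in aged antibiotic microglia was Cirbp, the cold-inducible RNA-binding protein gene. It was 1.03, 0.923 and 1.04 in aged control and 1.81, 2.05 and 1.76 in aged antibiotic pools, a log2 change of 0.88 ± 0.08 (limma adjusted p = 1.61e-05). In young pools it was 1.07, 1.09 and 1.00 against 1.53, 1.30 and 1.20, without overlap but not passing (0.33, adjusted p = 0.103). The difference between the ages was 0.55 ± 0.11, at an adjusted p of 0.184 in all microglia and 0.66 at 0.035 in cluster 0 alone.

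Rbm26, an RNA-binding protein gene, was called higher at both ages, as was Ppp1r21. It was 0.992, 0.930 and 0.967 in young controls, 1.28, 1.18 and 1.19 in young antibiotic pools, 0.828, 0.810 and 0.942 in aged controls and 1.31, 1.27 and 1.31 in aged antibiotic pools. Its log2 change was 0.32 in young mice (limma adjusted p = 0.0467) and 0.57 in aged mice (8.49e-05). The young call was lost without any of 9 of the 12 pools, all 6 young pools among them (adjusted p up to 0.23). The cyclin gene Ccnd3 (0.61), Rassf2 (0.53), Tagap (0.53) and Cables1 (0.48) rose in aged mice under every pool left out, while Klf13 (0.46) lost its call without 5 of the 6 aged pools, aged antibiotic 3 being the exception (up to 0.13). Over both ages Pik3ip1, an inhibitor of PI3 kinase, rose by 0.86 (adjusted p = 0.000227), and the lipase gene Pnpla2 (0.37), Anapc16 (0.34), Mlph (0.34) and Rilpl1 (0.33) were named by the same rule.

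Among the genes that fell, P4ha1, a subunit of the collagen prolyl hydroxylase of the endoplasmic reticulum, was 0.912, 1.04 and 0.920 in aged control and 0.575, 0.544 and 0.634 in aged antibiotic pools (log2 -0.67 ± 0.08, limma adjusted p = 0.000144). Its young values of 0.780, 0.779 and 0.793 against 0.587, 0.628 and 0.745 did not overlap either (-0.25, adjusted p = 0.234). The endocytic adaptor gene Fchsd2 (-0.65), the lysosomal peptide transporter gene Slc15a4 (-0.56), the dynein light chain gene Dynll1 (-0.54), the tubulin gene Tuba1a (-0.50) and Pid1 (-0.48) fell in aged mice under every pool left out. Col27a1 (-0.48) lost its call without aged antibiotic 2 (adjusted p = 0.071). Nrros, a partner of latent TGF-beta in microglia, fell by 0.39 over both ages (adjusted p = 0.00101).

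Gpr84, one of the genes most restricted to microglia in this data set, was also lower. It was 1.53, 1.81 and 1.96 in young control and 1.11, 1.44 and 1.22 in young antibiotic pools. In aged mice it was 2.22, 3.07 and 1.89 in control and 1.20, 1.89 and 1.33 in antibiotic pools, which just fail to overlap. The log2 change was -0.68 ± 0.15 in aged mice (limma adjusted p = 0.0216), lost without aged control 2, aged antibiotic 1 or aged antibiotic 3 (up to 0.12), and -0.58 ± 0.11 over both ages (0.00449), held under every pool left out.

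The receptor and cytokine genes that passed were all lower. Of 14 purine and pattern recognition receptors, 3 were lower in aged antibiotic microglia, beside 1.64% of all genes lower. These were Gpr84, the adenosine receptor gene Adora3 (-0.38) and the endotoxin receptor gene Tlr4 (-0.44). Over both ages 4 were lower, beside 3.24% of all genes. There the inflammasome gene Nlrp3 was added (-0.38, limma adjusted p = 0.0171, not called without aged control 2 at 0.052). Tlr4 was not called in aged mice without aged control 1, aged control 2 or aged antibiotic 2 (up to 0.074). Il1a, the gene of the alarm cytokine interleukin-1 alpha, was 3.17, 4.17 and 3.57 in young control and 2.26, 3.06 and 2.64 in young antibiotic pools, and 3.67, 5.37 and 4.20 against 3.27, 3.52 and 2.78 in aged pools. It fell by 0.45 over both ages (adjusted p = 0.00669). Of 13 tested cytokine and chemokine genes, 0 passed in either age alone. Over both ages 2 were lower, Il1a and Cxcl16 (-0.25), beside 3.24% of all genes lower. Cxcl16 was lost without 6 of the 12 pools taken singly (up to 0.081), aged control 2 among them.

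The calls among genes of glycolysis and the hypoxia response were also all lower. Of 15 tested, 5 passed in aged mice (beside 1.64% of all genes lower), namely Hk2 (-0.34), which encodes the first enzyme of glycolysis, Pfkl (-0.35), Aldoa (-0.26), Ldha (-0.22) and P4ha1, and 6 over both ages (beside 3.24%), where 15 of 15 were negative with a median of -0.14. In young mice 0 passed and the median was -0.16. The aged count fell to 2 when single pools were left out, and Pfkl, Aldoa and Ldha were each lost without aged control 2, aged control 3 or aged antibiotic 2 (adjusted p up to 0.18).

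The young calls were few. Odc1, the first enzyme of polyamine synthesis, was 0.904, 1.08 and 0.973 in young control and 0.601, 0.702 and 0.680 in young antibiotic pools (log2 -0.54 ± 0.08, limma adjusted p = 0.0243). Ppp1r21 was 0.707, 0.618 and 0.614 against 0.861, 0.936 and 0.987 (0.49 ± 0.08, adjusted p = 0.0243). The others among well-expressed genes were Rin2 (-0.39), Slc16a6 (-0.39), Apbb1ip (-0.30) and Rbm26. Odc1 was not called without young control 2, young control 3 or young antibiotic 1 (adjusted p up to 0.15), and the others were lost without at least 4 single pools, young control 2 and 3 among them.

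Few identity genes passed for antibiotics. Of 22 homeostatic microglial genes, 0 passed in young mice, with a median of -0.03. In aged mice 1 was lower (Gpr34, median -0.04), beside 1.64% of all genes lower. Over both ages 2 were lower (Gpr34 and P2ry13 at -0.16, median -0.04), beside 3.24%. Gpr34 was 9.11, 9.21 and 9.89 in young controls, 8.06, 8.15 and 8.97 in young antibiotic pools, 9.90, 9.21 and 9.81 in aged controls and 7.98, 6.26 and 7.91 in aged antibiotic pools. It fell by 0.39 on the log2 scale in aged mice (limma adjusted p = 0.0131), a call lost without aged control 1 or aged antibiotic 2 (up to 0.072). P2ry13 was lost without 5 of the 12 pools taken singly (up to 0.079), aged control 2 among them. P2ry12, Tmem119, Sall1, Siglech, Cx3cr1 and Trem2 passed in none of the antibiotic comparisons.

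The remaining lists gave few calls for antibiotics. Of 16 tested genes of disease-associated microglia, 1 was higher in aged mice, beside 1.59% of all genes higher. This was Spp1, the osteopontin gene, at 0.128, 0.129 and 0.0642 in aged control and 0.586, 0.245 and 0.638 in aged antibiotic pools (log2 1.72, limma adjusted p = 0.0109), lost without aged control 3 or aged antibiotic 3 (up to 0.051). When log2(value + 1) was averaged over cells instead, Spp1 did not pass (limma adjusted p = 0.41). Its change there was 0.01, on a scale that shrinks differences of low values, so the size cannot be set against 1.72. Of 22 interferon-stimulated genes, 1 was lower in young mice (Ifi27l2a), beside 0.137% of all genes called. In aged mice 1 was higher, beside 1.59% of all genes higher. This was Oasl2 (0.42, limma adjusted p = 0.0271), lost without any of 4 aged pools, aged control 1 and 3 and aged antibiotic 1 and 2 (up to 0.09). The medians of this list were -0.11 in young and 0.17 in aged mice. Genes of MHC class I (10 tested) and class II (6), TGF-beta signalling (11) and the cell cycle (6) had 0 calls in each antibiotic contrast.

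**Figure D3:**
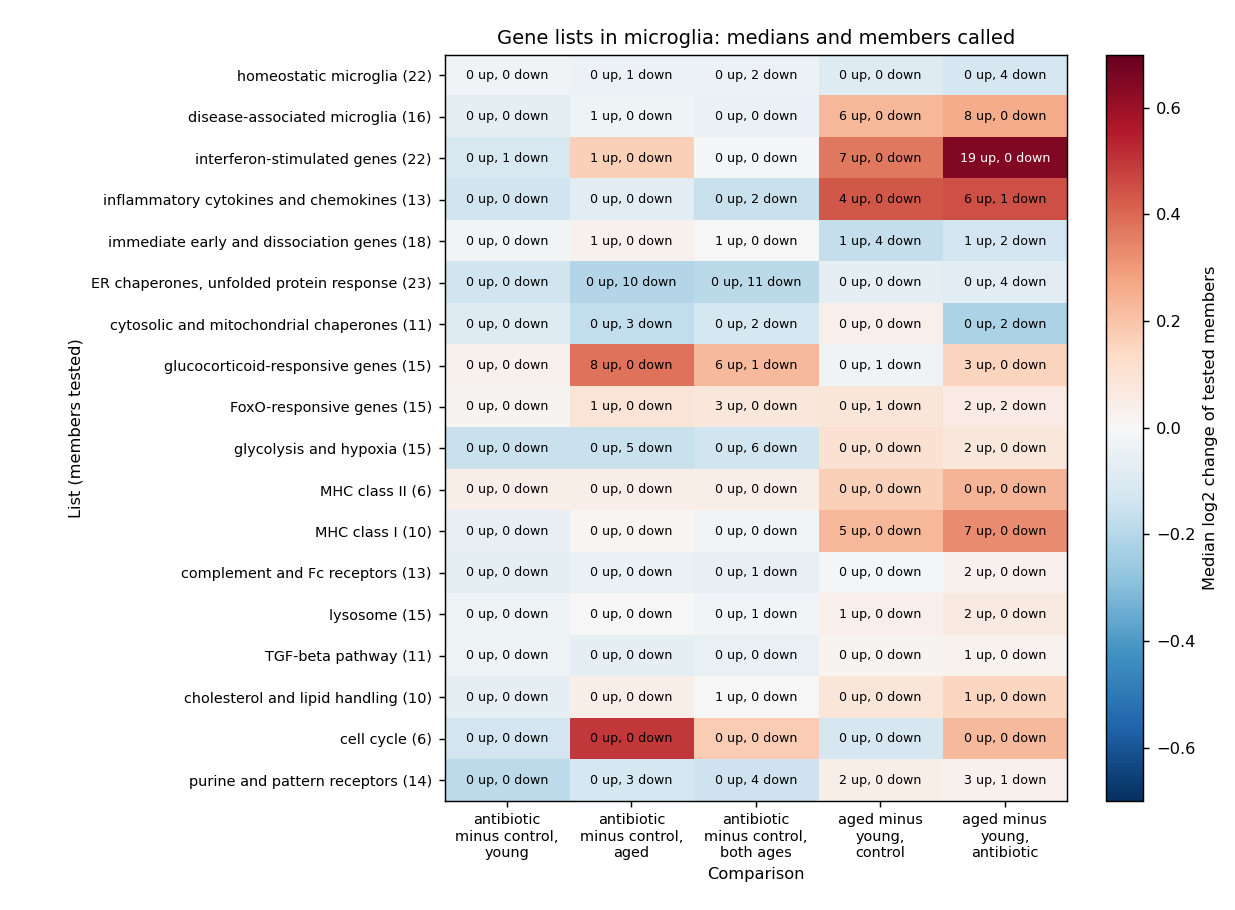
Median log2 change of the tested members of each gene list (rows, number tested in brackets) in 5 comparisons of microglia (columns), coloured from -0.7 to 0.7, with the number of members called higher and lower by limma in each cell. In the aged antibiotic comparison the list of ER chaperones and the unfolded protein response has 10 members lower and the glucocorticoid list 8 higher. By age the interferon list has 7 and 19 higher.

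The second question was what age, read together with the well, did to microglia. In control mice limma called 193 genes higher in aged microglia (2.20%) and 40 lower (0.457%). In antibiotic mice it called 434 higher (4.95%) and 105 lower (1.20%). The 2 comparisons share no pool, though both set the aged well against the young well. They shared 168 calls, all in the same direction, 72.1% of those in control and 31.2% of those in antibiotic mice. The control count of 233 was 103 without aged control 2, 133 without young control 1, 138 without aged control 1 and 145 without young control 2, and the antibiotic count of 539 was 271 without aged antibiotic 2, 340 without young antibiotic 3 and 357 without young antibiotic 2.

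RNA of marker genes of other cells differed between the wells. Igkc, an immunoglobulin gene of B cells, was the clearest, at a log2 difference of 2.64 in control and 2.68 in antibiotic mice, and S100a8, a neutrophil gene, was lower by 2.57 and 2.21. The ranges of B cell, T cell and BAM markers given above were higher in aged than in young control pools without overlap, with T cell markers summing to 0.0311 to 0.0401 in young control and 0.0731 to 0.210 in aged control microglia. The BAM sum rests mostly on a single marker, whose source was not tested. The part of all these markers in the results on age was not tested.

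Upk1b and Crlf2 led the well-expressed genes that rose with age in control mice. Upk1b had a mean of 0.519 and passed the limit of 0.5 only through its aged pools, so its place here rests partly on that limit. Upk1b was 0.290, 0.325 and 0.331 in young controls, 0.262, 0.310 and 0.356 in young antibiotic pools, 0.815, 0.758 and 0.678 in aged controls and 0.797, 0.614 and 0.695 in aged antibiotic pools. Crlf2, a chain of the receptor for the cytokine TSLP, was 0.619, 0.733 and 0.863 in young controls, 0.651, 0.823 and 0.778 in young antibiotic pools, 1.64, 1.50 and 1.55 in aged controls and 1.59, 1.74 and 1.44 in aged antibiotic pools. For both genes every aged pool lay above every young pool. The log2 differences were 1.13 and 1.07 for Upk1b (limma adjusted p = 1.55e-06 in control and 1.98e-06 in antibiotic mice) and 1.04 in each arm for Crlf2 (3.45e-06 and 2.78e-06).

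Secreted factors followed. Csf1, the growth factor that sustains microglia, rose by 0.99 in control (limma adjusted p = 0.00358) and 0.91 in antibiotic mice (0.00411). The chemokine gene Cxcl16 rose by 0.61 and 0.74. Tnf, the gene of tumour necrosis factor, was 1.43, 1.30 and 1.59 in young controls, 0.906, 1.46 and 1.05 in young antibiotic pools, 2.53, 3.46 and 1.83 in aged controls and 2.11, 3.22 and 2.56 in aged antibiotic pools. Its log2 difference was 0.80 in control mice (0.0222, lost without young control 1, young control 2, aged control 1 or aged control 2, up to 0.15) and 1.18 in antibiotic mice (0.000504, held throughout). Ccl3 rose in antibiotic mice by 0.74 (adjusted p = 0.00483), while its difference of 0.51 in control mice did not pass (0.0812). Of the 13 tested cytokine genes, 4 were higher in control mice, beside 2.20% of all genes higher. In antibiotic mice 6 were higher, beside 4.95%, and 1, Ccl9, was lower, beside 1.20%. The control count fell to 1 without young control 1.

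Of 16 tested genes of disease-associated microglia, 6 were higher with age in control mice and 8 in antibiotic mice, beside 2.20% and 4.95% of all genes. None was called lower in either arm, and the others did not pass. The list had medians of 0.23 and 0.26 against 0.02 and 0.03 over all genes. Apoe, the lipid carrier gene, was 8.38, 6.79 and 6.25 in young controls, 7.26, 6.79 and 7.65 in young antibiotic pools, 13.7, 11.5 and 10.9 in aged controls and 12.7, 20.8 and 15.9 in aged antibiotic pools. The aged pools did not overlap the young, with log2 differences of 0.75 (limma adjusted p = 0.00374) and 1.15 (2.48e-05). Axl, a receptor for apoptotic cells, was 0.0574 to 0.0607 in young controls, 0.0447 to 0.0499 in young antibiotic pools, 0.124 to 0.172 in aged controls and 0.176 to 0.211 in aged antibiotic pools, and rose by 0.84 and 1.33. Cst7, a protease inhibitor gene, was at most 0.0541 in any young pool and at least 0.130 in any aged pool, with differences of 1.02 and 1.60. Cd63 (0.44 and 0.43) and Cd9 (0.33 and 0.28), 2 tetraspanin genes, also rose in both arms, though Cd9 was lost in control mice without aged control 2 (0.053) and in antibiotic mice without young antibiotic 1, aged antibiotic 2 or aged antibiotic 3 (up to 0.079).

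All 22 tested interferon-stimulated genes had positive log2 differences with age in both arms, with medians of 0.37 and 0.65. In control mice 7 passed, beside 2.20% of all genes higher, and in antibiotic mice 19, beside 4.95%, with 0 lower in either. The control count fell to 2 without aged control 2, and the antibiotic count to 12 without aged antibiotic 2.

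Ifi27l2a, an interferon-induced mitochondrial protein gene, was 0.306, 0.336 and 0.353 in young control and 0.185, 0.176 and 0.229 in young antibiotic pools. It was 0.566, 0.613 and 0.594 in aged control and 0.657, 0.676 and 1.03 in aged antibiotic pools. The 4 groups did not overlap one another, in the order young antibiotic, young control, aged control, aged antibiotic. The age difference was 0.75 in control (limma adjusted p = 0.00141) and 1.74 in antibiotic mice (4.31e-08), and the young antibiotic difference was -0.63 (0.0467, lost without any of 7 pools, 5 of them young, up to 0.2). The test of the difference between the 2 antibiotic effects was not passed by any gene, as given above. Ifi204, a DNA sensor gene, rose by 0.82 and 1.16, Ifit3 by 0.75 and 0.91, Ifitm3 by 0.57 and 0.88 and Bst2, which tethers budding virions, by 0.30 and 0.50. Ifit3, Ifitm3 and Bst2 were lost in control mice without aged control 2, among others (up to 0.14).

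Of 10 tested genes of MHC class I, which presents antigen to CD8+ T cells, 5 were higher with age in control and 7 in antibiotic mice, beside 2.20% and 4.95% of all genes. B2m, the light chain of class I, was 8.91, 8.57 and 8.99 in young controls, 9.33, 8.72 and 8.81 in young antibiotic pools, 10.8, 11.5 and 11.8 in aged controls and 11.2, 12.4 and 12.6 in aged antibiotic pools. Every aged pool lay above every young one, by 0.36 (limma adjusted p = 0.00394) and 0.42 (0.000482) on the log2 scale. H2-Q7 rose by 0.78 and 0.90, H2-D1 by 0.32 and 0.45 and H2-K1 by 0.30 and 0.35. H2-D1 was lost in control mice without aged control 2 or 3 (up to 0.053) and H2-K1 without any of 5 control pools (up to 0.085). The count in control mice fell to 2 when single pools were left out. Of the MHC class II genes 0 passed in either arm.

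**Figure D4:**
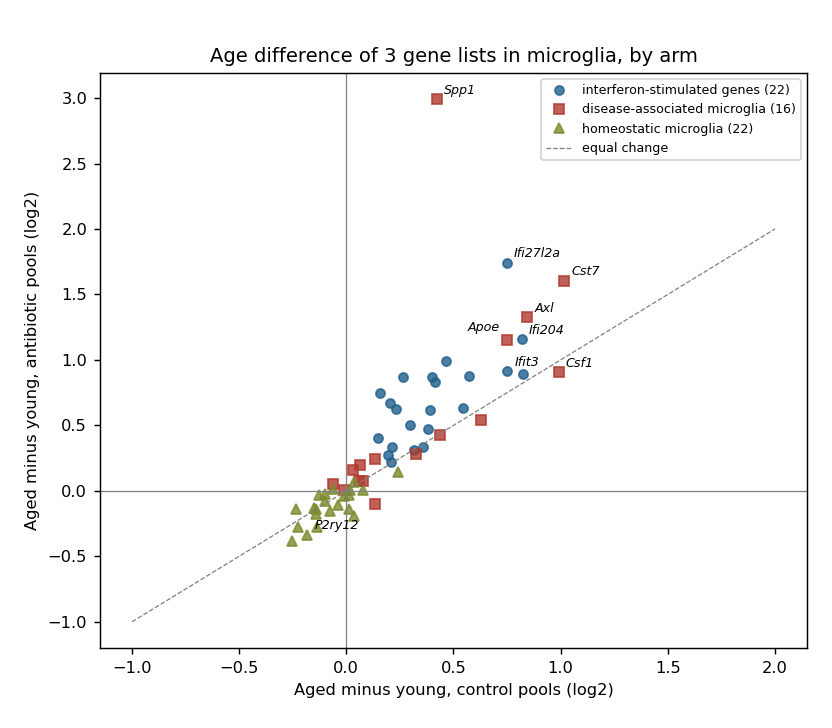
Log2 difference of aged minus young microglia in control pools (x axis) against the same in antibiotic pools (y axis) for the tested genes of 3 lists; the dashed line marks equal differences. All 22 interferon-stimulated genes lie above 0 on both axes, Spp1 is the point at 2.99 on the y axis, and the homeostatic genes lie close to 0.

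Homeostatic genes were near their young levels in control mice, where 0 of 22 passed, at a median of -0.09. In antibiotic mice 4 were lower, P2ry12, Fcrls, Csf1r (-0.27) and Sparc (-0.38), beside 1.20% of all genes lower. P2ry12 was 10.9, 11.7 and 12.3 in young controls, 10.9, 10.7 and 12.3 in young antibiotic pools, 10.8, 9.77 and 10.2 in aged controls and 9.16, 8.26 and 9.43 in aged antibiotic pools. The aged antibiotic pools were the 3 lowest of the 12. The difference was -0.33 in antibiotic mice (limma adjusted p = 0.0102, lost without young antibiotic 3 or aged antibiotic 2, up to 0.066) and -0.18 in control mice (0.28). The count of 4 fell to 1 without young antibiotic 3, as Fcrls (-0.27) and Csf1r were also lost there (up to 0.19). Tmem119 differed by 0.04 and 0.07 and Sall1 by -0.10 and -0.02, none of them passing.

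Some transcription factors fell with age. Klf4 was 5.64, 5.94 and 4.63 in young controls, 5.02, 4.34 and 4.65 in young antibiotic pools, 3.35, 2.83 and 3.62 in aged controls and 4.06, 3.35 and 3.58 in aged antibiotic pools, with no overlap between ages. Its log2 difference was -0.72 in control (limma adjusted p = 0.000259) and -0.35 in antibiotic mice (0.0402, lost without 6 of the 12 pools taken singly, aged antibiotic 2 among them, up to 0.17). Klf2, a related factor, fell by 0.59 and 0.49, and was lost in control mice without aged control 2 (0.061) and in antibiotic mice without young antibiotic 2, young antibiotic 3 or aged antibiotic 2 (up to 0.087). Hpgd, the prostaglandin-degrading enzyme gene (-0.41 and -0.67), Tmx4 (-0.50 and -0.48), the lysosomal sulfatase gene Arsb (-0.46 and -0.51) and Pnp, of purine salvage (-0.38 and -0.40), fell in both arms under every pool left out.

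Whether microglia differed from their neighbours in these responses was tested on the difference per pool between microglia and another type, which cancels what a pool shares. Against BAM, limma called 0 of 8310 genes (0%) for antibiotics over both ages, 0 (0%) for age in control and 0 (0%) for age in antibiotic mice, while 487, 479 and 692 had a p below 0.05 before adjustment. BAM numbered 506 cells in all, so the pool means behind this test are noisy and a miss does not show that the types respond alike. Against Ly6CLow cells, a myeloid type named by its surface markers, 0 of 7753 genes (0%) were called for antibiotics (473 with a p below 0.05 before adjustment), 1 (0.0129%) for age in control and 29 (0.374%) for age in antibiotic mice.

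Of those 29, 17 were higher and 12 lower in microglia relative to Ly6CLow cells. Ifi27l2a rose with age in antibiotic microglia (1.74) while its difference in Ly6CLow cells was -0.36, so that the 2 types differed by 2.10 on the log2 scale (limma adjusted p = 0.0225). Il7r, the interleukin-7 receptor gene, differed by -2.59 (0.0225), from -0.42 in microglia and 2.17 in Ly6CLow cells. It was also the single gene called in control mice (-2.83 ± 0.39, adjusted p = 0.0361). The count of 29 fell to 0 without aged antibiotic 2, aged antibiotic 3 or young antibiotic 2, to 1 without young antibiotic 1 or 3, to 3 without aged antibiotic 1, to 7 without young control 1 and to 11 without young control 3. The Il7r call in control mice was lost without any of 8 pools, taken singly: young control 2 and 3, young antibiotic 1, aged control 1 and 2 and all 3 aged antibiotic pools.

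Antibody tags gave a second view of the microglial surface. Levels between types are given for the young well, which was read more deeply, at 1325 tags per microglial cell against 206 in the aged well. The barcodes read for the 2 antibodies that stood out on microglia, and for the 2 meant to mark them or all leukocytes, are shown as deposited, in lower case throughout as no part of them differs in role.
CX3CR1 antibody barcode: cactctcagtcctat
CD11b antibody barcode: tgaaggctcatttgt
TMEM119 antibody barcode: tcgaacatttccagg
CD45 antibody barcode: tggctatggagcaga
Which antibodies were highest on microglia depended on the scale, as microglia had the fewest tags in all, 1325 per cell against 2273 to 8509 in the 8 other types of at least 100 cells. CX3CR1, the fractalkine receptor, was the 1 antibody of 34 with more tags on microglia than on any other type, at 125 tags per cell against 103 on BAM. In the aged well 3 types were above microglia for it, with 178 tags on B cells and 19.0 on microglia. As a percent of each type's tags, 12 antibodies were highest on microglia in the young well. They were CX3CR1, CD11b, CD172a, CD64, F4-80, Siglec-H, TMEM119, CCR2, XCR1, CD83, CD90.1 and CD335. Several of them had few tags per microglial cell, such as CCR2 (1.67), CD83 (0.598), CD90.1 (0.597) and CD335 (0.00387). CD11b, an integrin of myeloid cells, took 49.3% of all microglial tags, at 654 per cell. The TMEM119 antibody gave 1.92 tags per microglial cell in the young well, fewer than on each of the 8 other types, but its 0.145% of microglial tags was the highest share. Tmem119 RNA was highest in microglia, while Adgre1, the gene of F4-80, averaged 1.30 per microglial cell and 2.72 per BAM.

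CD45, the common leukocyte antigen, was at 80.0 tags per microglial cell against 199 on BAM, but took 6.04% of microglial and 4.96% of BAM tags. The 7 other types were above microglia on both scales. For 4 antibodies microglia were lowest on both scales in the young well, namely CD11c, CD38, CD44 and I-A-I-E. In the aged well I-A-I-E alone was lowest on both. The MHC class II antibody I-A-I-E was at 9.38 against 1690, CD38, an NAD-consuming ectoenzyme, at 7.14 against 396, and CD44, a hyaluronan receptor, at 4.43 against 35.2. RNA ran the same way for Cd38, with 0.00425 per microglial cell and 0.732 per BAM, and for Ptprc, which encodes CD45, with 2.36 in microglia and more in all 8 other types.

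**Figure D5:**
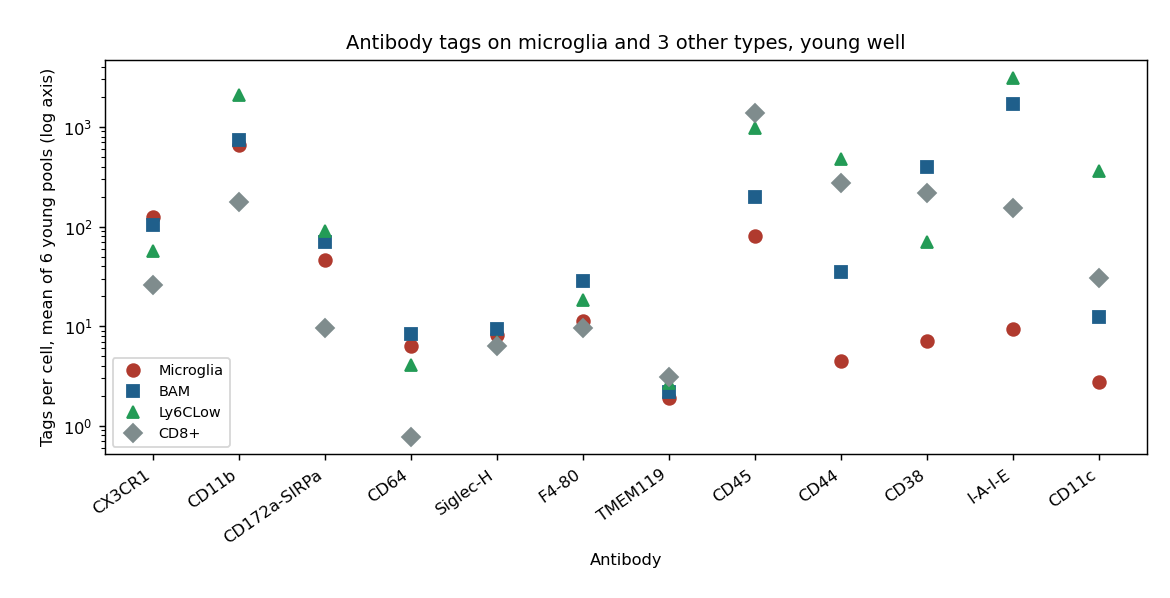
Tags per cell (y axis, log scale) for 12 antibodies (x axis) on microglia and 3 other annotated types, each point the mean of the 6 young pools. Microglia, with the fewest tags in all, are highest for CX3CR1 (125) and lowest for TMEM119, CD45, CD44, CD38, I-A-I-E and CD11c, while as a percent of each type's tags TMEM119 is highest on microglia and CD45 is above BAM.

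Antibiotics changed no antibody detectably. edgeR's quasi-likelihood test called 0 of 34 (0%) in each of the 4 antibiotic contrasts, which are young, aged, both ages and the difference. Before adjustment 3, 4, 5 and 1 antibodies had a p below 0.05, and DESeq2 called 0, 0, 3 and 1 after it. CX3CR1 was 141, 120 and 139 tags per microglial cell in young control and 115, 110 and 127 in young antibiotic pools, and 19.6, 20.3 and 21.7 against 15.6, 17.9 and 18.6 in aged pools. The arms overlapped in young and not in aged mice, and the log2 change over both ages was -0.21 (adjusted p = 0.205). CD44 was high in 2 antibiotic pools, at 10.0 tags in young antibiotic 3 and 7.39 in aged antibiotic 3, against 2.83 to 4.42 in the other young and 1.15 to 1.44 in the other aged pools.

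By age edgeR called 18 of 34 antibodies in control (52.9%) and 17 in antibiotic mice (50.0%) (at 1325 and 206 tags per microglial cell in the young and aged wells), but the split between higher and lower rested on the scaling. With TMM factors 10 were higher and 8 lower in control mice and 11 and 6 in antibiotic mice. The higher ones include 3 in each arm, CD335, CXCR4 and KLRG1, that the study's design text does not list and that were at or near 0 in every young pool. With total tags alone it was 17 and 2 in control and 19 and 0 in antibiotic mice. The integrin CD11c was higher by 0.93 and 1.11, and I-A-I-E by 0.48 and 0.56. For both antibodies microglia had the fewest tags per cell of the types of at least 100 cells in either well. CD11c was at 2.78 tags per microglial cell in the young and 1.04 in the aged well, and I-A-I-E at 9.38 and 2.49. CD172a (-0.56 and -0.43), Ly6C (-0.54 and -0.43), CD64 (-0.40 and -0.31), CD11b (-0.34 and -0.27) and CX3CR1 (-0.29 and -0.29) were lower with TMM factors. F4-80 (-0.24) and XCR1 (-0.21) were called lower in control mice, and with total tags alone they turned to 0.04 and 0.06.

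Raw tags per microglial cell were lower in the aged well for these antibodies, as depth was. CD11b was 640, 618 and 725 tags per microglial cell in young control pools and 97.7, 97.8 and 101 in aged control pools, and CD45 77.4, 83.3 and 84.4 against 13.3, 14.1 and 13.2. CD11c was 2.72, 2.69 and 2.69 against 1.02, 0.881 and 1.00. A ratio within a well shows unequal change between antibodies, not which of them changed.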

How the data were processed

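Cell types, clusters, hashtag calls and groups were the authors', from the deposited metadata. RNA came as a score for 19848 genes in the authors' deposited table, whole-number SCTransform-corrected UMI values that summed to the corrected total in all 13052 cells and to the raw total in 62. Antibodies came as raw tag counts, for 34 antibodies in the authors' deposited table, of which the study's design text lists 31. Raw UMI totals are counts from the deposited metadata. The submitters' processing notes name Cell Ranger 3.0.2, Seurat 3.0.1 and mm10. Filters on cells and covariates of the correction are not given in the sources used here. The cells held hashtag calls of single pools, no doublet caller was run, and 35 metadata columns were not used.

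Pool means of RNA were tested with limma 3.58.1 (trended prior, log2 of the mean plus 0.05, mean of at least 0.05, all 12 pools), antibody sums with edgeR 4.0.16 (TMM; alternative DESeq2 1.42.0), and shares with exact two-sided permutation tests, with arms permuted within age for both ages together. The threshold was a Benjamini-Hochberg adjusted p under 0.05. Steps were tested on simulated data. Named genes were up to 10 per direction with the largest change among called genes with a mean of at least 0.5, and at least 0.25 of that of any other type, whose pools did not overlap, plus members of the lists. Some named genes are not reported here. Members, lists and rules were chosen with earlier results of these data known. Counts and tags carry counting error only within a library, and precision between groups is set by 3 pools each.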

Additional observations from a re-analysis of the deposited data

Results flagged for a closer look

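A set of genes changed with age differently in microglia and in Ly6CLow cells, by a test on the difference between the types within each pool (limma, adjusted p under 0.05). In control mice this was Il7r, the interleukin-7 receptor gene, for which microglia minus Ly6CLow cells was -2.83 on the log2 scale. In antibiotic mice Ifi27l2a (2.10), the mitochondrial folate enzyme gene Mthfd2 (1.95), Phlda1 (1.95), the helicase and nuclease gene Dna2 (1.93) and the survival gene Bcl2a1d (1.74) rose more or fell less in microglia. Rora (-2.93), Gm20186 (-2.92), Il7r (-2.59), Syngr1 (-2.31) and Ecscr (-2.12) did the opposite. In each of these genes except Ifi27l2a the larger difference with age was in Ly6CLow cells: Rora differed with age by 0.58 in microglia and 3.51 in Ly6CLow cells, and Phlda1 by 0.16 and -1.79. Some Ly6CLow values were near 0, at 0.0930, 0 and 0.0204 for Rora and 0, 0 and 0.0408 for Ecscr in young antibiotic pools. In the same pools Syngr1 was 0.116, 0.0606 and 0.0612 in Ly6CLow cells and Dna2 was 0.0565, 0.0237 and 0.0396 in microglia. The log2 sizes for genes with such low values, these among them, therefore depend in part on the added 0.05. Ifi27l2a was at 1.74 in microglia and -0.36 in Ly6CLow cells, whose pools held 3.84, 3.88 and 5.16 in young antibiotic and 3.19, 3.10 and 3.66 in aged antibiotic mice. The calls in antibiotic mice were all lost without aged antibiotic 2, aged antibiotic 3 or young antibiotic 2, and that of Il7r in control mice without any of 8 single pools.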

How the results depend on the processing

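Counts of microglial genes called over the fits that left out 1 pool ran from 0 to 26 for antibiotics in young mice (12 with all pools), 109 to 304 in aged mice (283), 262 to 528 over both ages (473), 0 to 4 for the difference (0), 103 to 242 for age in control (233) and 271 to 542 for age in antibiotic mice (539). Without the filter on low values they were 0, 105, 209 and, for age in control, 145. With log values averaged over cells they were 58 in young, 439 in aged mice and 4 for the difference. In microglia of 4000 to 12000 raw UMIs they were 28, 450 and 2. With each gene's values capped near their top they were 25 in young mice and 1 for the difference. Cluster 0 alone gave 73, 571, 802, 2 and, for age in antibiotic mice, 898. In young mice a pseudocount of 0.5 gave 7 and the young pools alone 25.

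For antibodies the fits without 1 pool gave 0 to 0 in young, aged and both ages, 0 to 1 for the difference, 16 to 19 for age in control and 14 to 19 for age in antibiotic mice. DESeq2 gave 3 over both ages and 1 for the difference, and antibodies with at least 10 tags in every pool 1 over both ages. With total tags, F4-80 turned to 0.0404 and XCR1 to 0.0639.

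Against BAM the fits without 1 pool gave 0 to 0 for antibiotics and for age in control and 0 to 1 for age in antibiotic mice, where a pseudocount of 0.5 gave 3. Against Ly6CLow cells they gave 0 to 0, 0 to 7 and 0 to 39, the pseudocount gave 6 and 117 for age in control and antibiotic mice, and a filter of 0.25 in both types gave 7 and 93.

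The share of microglia moved between -2.71 and 2.51 points for antibiotics in young, -9.60 and 2.56 in aged and -4.46 and 1.63 over both ages when 1 pool was left out, and turned sign without young control 1 (-2.33), young antibiotic 2 (-2.71) or aged antibiotic 3 (2.56 and 1.63). For age it stayed between -12.4 and -5.77 in control and -19.2 and -7.05 in antibiotic mice. The cause of these shifts was not tested.

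With the hashtag number as a replicate block, age gave 234 called genes in control and 563 in antibiotic mice. Pools of the same number were not paired by the labels, and their deviations correlated at -0.09 to 0.11. For single genes and antibodies, 2927 of 3437 values with 1 pool left out and 1572 of 1736 under other settings kept direction and side of the threshold. Of the rest 509 and 158 were no longer called, 1 and 4 became called, and 2 turned sign. With 3 pools a group, differences near the threshold are the least certain, and aged antibody tags are the shallowest values.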

Other observations

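Some further genes, not named above, differed by age in microglia in the same limma comparisons. Hcar2, a receptor for butyrate, ketone bodies and niacin, was 0.0412, 0.0656 and 0.0816 in young control, 0.0445, 0.0355 and 0.0523 in young antibiotic, 0.237, 0.418 and 0.270 in aged control and 0.187, 0.277 and 0.217 in aged antibiotic pools. Its log2 difference was 1.65 in control (limma adjusted p = 5.28e-06) and 1.55 in antibiotic mice (9.23e-06). Antibiotics gave no call for it at either age. Lyz2, the lysozyme gene of macrophages, was 2.50, 2.44 and 2.22 in young control and 3.45, 4.01 and 3.77 in aged control pools (0.64, adjusted p = 0.00581) and rose by 0.73 in antibiotic mice. The Fc receptor genes Fcgr2b (0.36) and Fcgr4 (0.59) rose with age in antibiotic mice, and their differences in control mice (0.13 and 0.26) did not pass. Irs2, an adaptor of insulin signalling, rose by 0.79 in antibiotic mice (adjusted p = 1.81e-05).

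Mgp, a matrix protein gene whose mean was higher in cluster 1 than in cluster 0, was called higher with age in antibiotic mice in all microglia (1.58, limma adjusted p = 0.0061). It was not called in cluster 0 alone (0.25, adjusted p = 0.36). The cell cycle list had a median of 0.49 for antibiotics in aged microglia and -0.06 in cluster 0 alone, with 0 of 6 genes called.

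The antibody table held 3 antibodies that the study's design text does not list. On microglia CXCR4 had 0 tags in all 6 young pools and 0.0486 to 0.0965 tags per cell in the aged pools, KLRG1 0 to 0.00204 and 0.0613 to 0.106, and CD335 0 to 0.00656 and 0.248 to 0.349. CD117 was at 7.33 tags per microglial cell in aged antibiotic 3 and at 0.363 to 0.608 in the other aged pools.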
